A study of Mus musculus with 4 samples.

Results

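The genes described here are 10 structural components of basement membranes, comprising 7 laminin chains (*Lama2*, *Lama4*, *Lama5*, *Lamb1*, *Lamb2*, *Lamc1* and *Lamc3*), the 2 nidogens (*Nid1* and *Nid2*) and hemicentin 1 (*Hmcn1*). They were taken as a named list, matched by symbol, and make up 10 of the 28692 gene rows that were counted. All 10 were detected in mesenchymal stromal cells (MSC) from the gut of adult mice, with between 192 (*Lamc3*) and 40630 (*Lamb1*) unique molecular identifiers (UMIs, the count of distinct captured RNA molecules) summed over the 5 cell classes used below.

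A basement membrane is a thin sheet of matrix on which epithelium, smooth muscle and the walls of small vessels rest. Its laminins are trimers of 1 α, 1 β and 1 γ chain, which assemble into a network that cells bind through integrins and dystroglycan, while nidogens bridge this network to that of type IV collagen and hemicentins are very large extracellular proteins found where tissues attach to one another. In the gut, fibroblasts (FB) that lie directly beneath the epithelium are known to contribute chains to the epithelial basement membrane, and smooth muscle cells (SMC) and pericytes make their own.

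To describe MSC of the intestine, the study profiled single cells from the lamina propria (the connective tissue under the epithelium) of small intestine and colon. Mice were untreated C57BL6/Nrj females of 8 to 10 weeks, with 3 mice in each of 2 independent experiments, and each intestine gave 2 droplet libraries, numbered 1 and 2. Muscle layers had been stripped before sorting, so SMC here are those left in the lamina propria, and sorted cells were live, negative for CD45, Ter119, CD31, BP3, EpCAM and L1CAM and positive for integrin β1. Integrin β1 is itself a subunit of laminin receptors.

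Files held unnormalized UMI counts for each gene in each barcode. Small intestine libraries 1 and 2 summed to 14341443 and 45640122 UMIs, and colon libraries 1 and 2 to 22076000 and 52269372 UMIs. After filtering, 1808 and 14350 small intestinal and 2386 and 12153 colonic cells remained, at medians of 6949.5 and 2734.5 UMIs per cell in the small intestine and 8810 and 3881 in colon. Libraries numbered 1 thus held fewer but deeper cells in both intestines. Per the file headers they were also processed with another Cell Ranger version than those numbered 2. Small intestine library 2 and colon library 2 shared 69 barcodes, the largest number for any pair. Small intestine library 1 and colon library 1 shared 8, and no pair of different numbers shared more than 2. The barcode set is not stated per library.

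Cells were assigned to 5 classes by scores over marker genes, none of which is among the 10 genes described. PDGFRαhi FB, CD81+ FB, the other PDGFRαlo FB, SMC and pericytes comprised 158 and 1106, 293 and 2243, 556 and 7436, 86 and 201, and 49 and 28 cells in small intestine libraries 1 and 2. In colon libraries 1 and 2 the same classes comprised 606 and 3015, 196 and 2363, 729 and 3436, 256 and 820, and 87 and 66 cells. Between 9.85% and 22.9% of cells per library stayed unassigned, and 7.47% to 15.9% lay near a border between FB classes. Markers held out of the gate checked these names. *Sox6* (PDGFRαhi FB), *C3* (CD81+ FB), *Lmod1*, *Smtn* and *Hhip* (SMC) and *Ndufa4l2*, *Cox4i2* and *Mcam* (pericytes) were highest in their own class in 4 of 4 libraries. *Foxl1* and *Nrg1* (PDGFRαhi FB), *Rspo3* (CD81+ FB), *Steap4* (pericytes) and *Pparg* (other PDGFRαlo FB) were so in 3 of 4. The other held-out markers went against their class in more libraries, *Synpo2* (SMC) and *Cd55* (CD81+ FB) being highest there in 2 of 4 and *Ackr3* (CD81+ FB) in 1 of 4. The name CD81+ FB thus rests mainly on *C3* among these. For the other PDGFRαlo FB, *Cxcl14* was highest in 0 of 4, so this class is best read as the FB that remain once PDGFRαhi FB and CD81+ FB are taken out. The 28 pericytes of small intestine library 2 summed to 51885 UMIs, where 3 counts already stand for 57.8 CPM (counts per 1000000), and values from them are imprecise.

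Levels below are CPM, the share of a gene among all UMIs of that class in that library scaled to 1000000, and are compared for a gene between classes or intestines, not between genes. Differences are on the log2 scale with their standard error, from edgeR's quasi-likelihood test on UMIs summed per library and class. Calls were made where the p-value, adjusted by Benjamini-Hochberg over every gene tested, was under 0.05. With 2 libraries per intestine, calls between intestines rest on 4 values per class.

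Free RNA from broken cells can place UMIs in cells that do not express a gene, so the members were also read in cell types left over in the sorts. In 59 plasma cells of small intestine library 1 (median depth 26932 UMIs) they ranged from 0 to 10.7 CPM (*Lamc1*), and *Lama2* stood at 0.627 CPM. In 44 immune cells of the same library *Lamb1* reached 98.4 CPM, *Nid1* 67.1 CPM and *Lamc1* 44.7 CPM. In small intestine library 2, 11 plasma cells held *Lama2* and *Lamb1* at 147 CPM each (11 UMIs each) and *Hmcn1* at 53.3 CPM (4 UMIs), and 18 immune cells held *Lamb1* at 388 CPM (25 UMIs), *Nid1* at 202 CPM and *Hmcn1* at 170.7 CPM (11 UMIs). The colonic cells of these types numbered 3 to 11 per library, with up to 199.6 CPM (*Lamb1*, immune cells of library 1) and 212 CPM (*Lama2*, immune cells of library 2), *Lamc1* at 159.7 CPM and *Lama4* at 143.8 CPM in plasma cells of library 2, and 0 UMIs of *Hmcn1*. The background was thus low in the 59 plasma cells alone and, on few UMIs, of the order of many MSC levels of *Lama2*, *Lama4*, *Lamb1*, *Lamc1* and *Nid1* in the other groups, whereas *Lamc3* had 0 UMIs in all 8 groups of plasma and immune cells and *Lama5* 1 UMI in total. Endothelial cells of library 1 (348 in the small intestine and 237 in colon) held *Lama2* at 3.1 and 1.54 CPM, but *Nid2* at 70.2 and 80.7 CPM. The 24 endothelial cells of colon library 2 held *Lama2* at 63 CPM (10 UMIs) and *Nid2* at 31.5 CPM (5 UMIs). The part of free RNA in the values below was not tested.

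**Figure D1:**
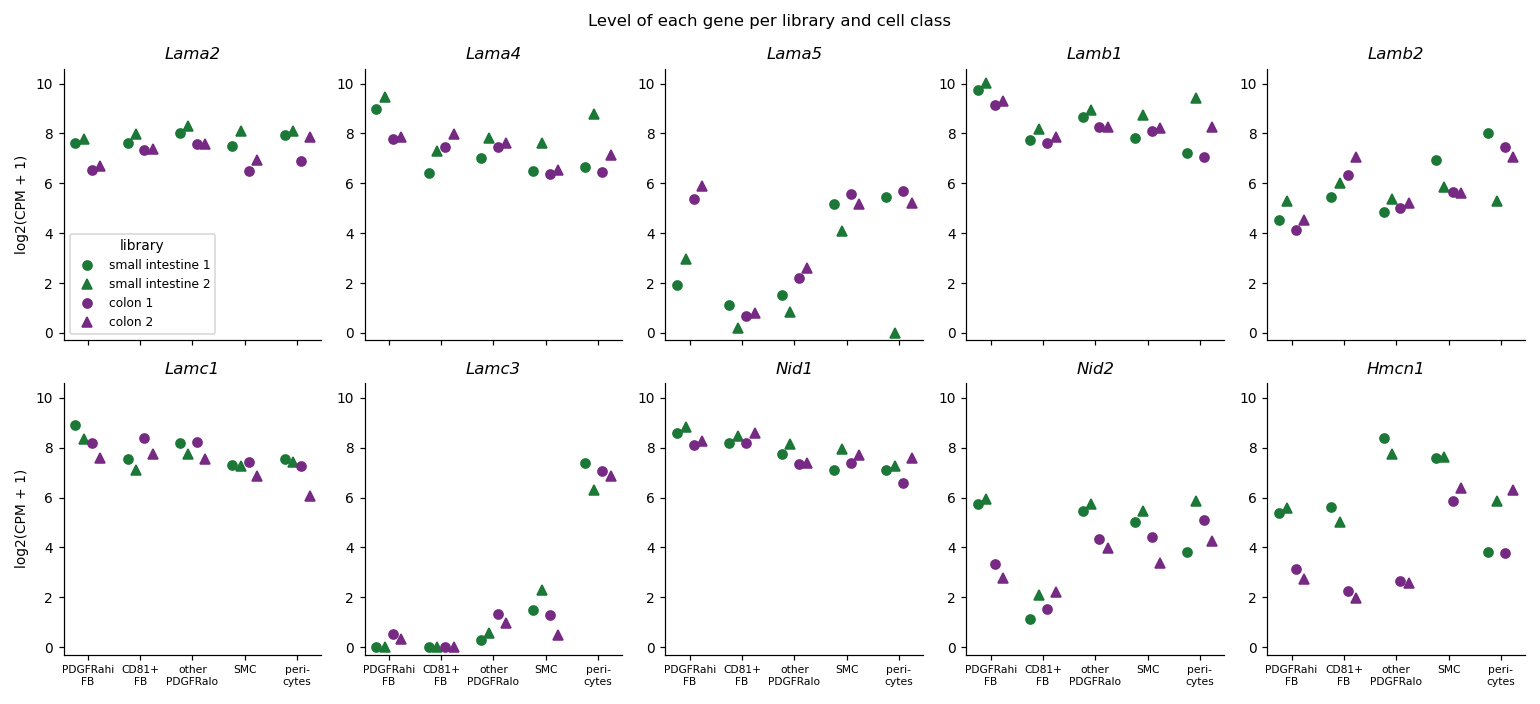
Level of each of the 10 genes as log2(CPM + 1) (y axis) in 5 cell classes (x axis), 1 point per library, green for small intestine and purple for colon, circles for library 1 and triangles for library 2. *Lamc3* stands out in pericytes alone among these classes, and the small intestinal *Hmcn1* points lie above the colonic ones in all 3 FB classes.

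The α chains set which cell receptors a laminin binds. *Lama2* (ENSMUSG00000019899, chr10:26980036-27619758, minus strand, GRCm38), the α2 chain typical of muscle and of mesenchymal matrix, was found in every class. It ranged from 188 to 315 CPM in the other PDGFRαlo FB and from 90.5 to 215 CPM in PDGFRαhi FB over the 4 libraries. In both small intestine libraries every class lay above plasma and immune cells. In colon library 1 PDGFRαhi FB, SMC and pericytes lay below immune cells (139.7 CPM, 14 UMIs). In colon library 2 every class but pericytes (229 CPM) lay below immune cells (212 CPM, 11 UMIs). In the comparison of each class with the mean of the other 4, *Lama2* was lower in PDGFRαhi FB (log2 difference -0.58 ± 0.13, adjusted p = 0.00165) and higher in the other PDGFRαlo FB (0.56 ± 0.12, adjusted p = 0.00198). Smaller differences were called in CD81+ FB (0.40 ± 0.12, adjusted p = 0.0132), and in SMC (-0.39 ± 0.13, adjusted p = 0.0309). The CD81+ FB difference fell to 0.09 when counts were scaled by library totals only and was lost under 6 of 14 alternatives, among them leaving out colon library 1 (0.29) or 2 (0.42). The SMC call was lost under 8 of 14, among them leaving out small intestine library 1 (-0.37), colon library 1 (-0.31) or colon library 2 (-0.35), and that in PDGFRαhi FB after thinning each cell to 2000 UMIs (-0.43).

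*Lama4* (ENSMUSG00000019846, chr10:38965515-39110188, plus strand), the α4 chain known from vessel walls and mesenchyme, had its highest level in PDGFRαhi FB. It was at 505 and 706 CPM in small intestinal and at 221 and 233 CPM in colonic PDGFRαhi FB (libraries 1 and 2). In CD81+ FB it was at 84.9 and 157 CPM in the small intestine and at 174 and 248 CPM in the colon. PDGFRαhi FB of small intestine thus stood apart from every other class of that intestine, whereas in colon their values and those of CD81+ FB overlapped. Against the mean of the other 4 classes *Lama4* was higher in PDGFRαhi FB (1.28 ± 0.23, adjusted p = 0.000478) and lower in SMC (-1.0 ± 0.27, adjusted p = 0.0126), the latter call being lost without colon library 1 (-0.99) or colon library 2 (-0.91) and with library totals only (-0.94).

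*Lama5* (ENSMUSG00000015647, chr2:180176373-180225859, minus strand) encodes the α5 chain, a main laminin of adult epithelial basement membranes that is bound by the receptor Bcam. It was most abundant in mural cells and in colonic PDGFRαhi FB. SMC held 34.7 and 15.8 CPM in the small intestine and 46.0 and 34.9 CPM in colon. Pericytes held 43.2 and 0 CPM in small intestine (0 of the 51885 UMIs of library 2, below the 57.8 CPM that 3 counts stand for) and 50.9 and 36.2 CPM in colon. PDGFRαhi FB held 2.75 and 6.84 CPM in small intestine but 40.4 and 59.0 CPM in colon, both colonic values lying above both small intestinal ones and that of library 2 above every SMC and pericyte value. In CD81+ FB and the other PDGFRαlo FB *Lama5* did not pass 5.01 CPM in any library. Against the mean of the other 4 classes it was higher in SMC (2.23 ± 0.40, adjusted p = 0.000713), pericytes (2.43 ± 0.57, adjusted p = 0.0058) and PDGFRαhi FB (1.92 ± 0.34, adjusted p = 0.000524) and lower in CD81+ FB (-4.63 ± 0.63, adjusted p = 3.81e-05) and the other PDGFRαlo FB (-1.95 ± 0.46, adjusted p = 0.0068). The calls in pericytes (2.41) and the other PDGFRαlo FB (-1.89) were lost without colon library 1, and the former also with the stricter gate (1.90).

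The β1 chain *Lamb1* (ENSMUSG00000002900, chr12:31265234-31329644, plus strand) and the γ1 chain *Lamc1* (ENSMUSG00000026478, chr1:153218922-153332786, minus strand) are the partners that most laminin trimers share. *Lamb1* was at 862 and 1026 CPM in small intestinal and at 557 and 634 CPM in colonic PDGFRαhi FB. No other class passed 675 CPM in small intestine (pericytes of library 2, on 35 UMIs) or 308 CPM in colon. In each intestine the PDGFRαhi FB values lay above those of every other class, and the difference from the mean of the other 4 was 1.30 ± 0.14 (adjusted p = 1.25e-06). *Lamb1* was lower in pericytes (-0.80 ± 0.18, adjusted p = 0.00287), a call lost without small intestine library 1 (-0.56) or colon library 1 (-0.54), with library totals only (-0.53) and after thinning (-0.60).

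*Lamc1* was at 481 and 326 CPM in small intestinal and at 293 and 194 CPM in colonic PDGFRαhi FB. It was higher than the mean of the other classes in PDGFRαhi FB (0.67 ± 0.15, adjusted p = 0.0028) and lower in pericytes (-0.91 ± 0.20, adjusted p = 0.00248) and SMC (-0.62 ± 0.17, adjusted p = 0.0119). The SMC call was lost without small intestine library 1 (-0.52) or colon library 1 (-0.60) and after thinning (-0.51). Small positive differences in CD81+ FB (0.42 ± 0.16, adjusted p = 0.0480) and the other PDGFRαlo FB (0.45 ± 0.15, adjusted p = 0.0478) were each lost under 10 of 14 alternatives, the former with library totals only (0.13) and without either colon library (0.26 and 0.22) and the latter without any 1 library (0.43 to 0.46).

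The β2 chain *Lamb2* (ENSMUSG00000052911, chr9:108479736-108490530, plus strand) is known from muscle and vessel laminins and can take the place of β1 in a trimer. Its order of classes was nearly the inverse of that of *Lamb1*. Pericytes held 255 and 38.6 CPM in small intestine, the latter on 2 UMIs, and 177 and 133 CPM in colon. CD81+ FB held 43.2 and 63.1 CPM in the small intestine and 80.0 and 131 CPM in colon, and PDGFRαhi FB 22.0 and 37.8 CPM and 16.4 and 21.8 CPM. Against the mean of the other 4 classes *Lamb2* was lower in PDGFRαhi FB (-1.77 ± 0.35, adjusted p = 0.00159) and higher in pericytes (1.80 ± 0.37, adjusted p = 0.0023) and CD81+ FB (0.82 ± 0.29, adjusted p = 0.0465). The pericyte call was lost without colon library 1 (1.61) and the CD81+ FB call under 7 of 14 alternatives, among them library totals only (0.54) and leaving out colon library 1 (0.76) or 2 (0.42). Over the 20 profiles of class and library, log2(CPM + 1) of *Lamb1* and *Lamb2* had a Pearson r of -0.754, while that of *Lamb1* and *Lama4* was 0.825. These profiles share libraries, so the values are a description.

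*Lamc3* (ENSMUSG00000026840, chr2:31887291-31946539, plus strand), the γ3 chain that is known from few sites such as retina and brain vessels, was found in pericytes. It was at 164 and 77.1 CPM in small intestinal pericytes (38 and 4 UMIs) and at 132 and 115 CPM in colonic ones (83 and 19 UMIs). All other MSC classes were at or below 3.94 CPM, and CD81+ FB had 0 UMIs in each of the 4 libraries. Set against a floor of 3 counts per library in CD81+ FB, pericytes were at least 141-fold and 183-fold higher in small intestine libraries 1 and 2 and at least 71-fold and 364-fold higher in colon libraries 1 and 2. The fitted difference of pericytes from the mean of the other 4 classes was 8.47 ± 0.39 (adjusted p = 3.06e-10), passed under each of 14 alternatives and ranged from 7.88 to 8.74, although its size depends on the prior count where a class is at 0. With each cell thinned to 2000 UMIs, a *Lamc3* UMI was seen in 27.9% of 43 small intestinal and 24.7% of 85 colonic pericytes of library 1 (46.9% and 47.1% unthinned). In small intestine library 2, 0 of the 12 pericytes deep enough to be thinned held one (14.3% of 28 unthinned), and in colon library 2 it was 10.8% of 37 (22.7% unthinned). No *Lamc3* UMI was found in the 59 plasma cells of small intestine library 1.

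Nidogens link laminins to type IV collagen. *Nid1* (ENSMUSG00000005397, chr13:13437551-13512269, plus strand) was found in every class, with most in CD81+ FB (294 and 357 CPM in small intestine, 291 and 381 CPM in colon) and PDGFRαhi FB (389 and 460 CPM, 277 and 306 CPM). Both were above the mean of the other 4 classes (0.97 ± 0.12, adjusted p = 7.06e-06, and 0.65 ± 0.13, adjusted p = 0.00068), and pericytes were below it (-1.07 ± 0.17, adjusted p = 8.78e-05). SMC were lower by a smaller difference (-0.44 ± 0.14, adjusted p = 0.0291), which was lost under 7 of 14 alternatives, among them leaving out small intestine library 1 (-0.29), colon library 1 (-0.51) or colon library 2 (-0.47).

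*Nid2* (ENSMUSG00000021806, chr14:19751265-19811787, plus strand) had another distribution. In CD81+ FB, where *Nid1* was highest in colon, *Nid2* lay between 1.17 and 3.67 CPM in all 4 libraries. In PDGFRαhi FB it was at 52.2 and 60.0 CPM in the small intestine and at 9.11 and 5.88 CPM in the colon, and in the other PDGFRαlo FB at 43.3 and 52.3 CPM and 19.5 and 14.6 CPM. It was lower in CD81+ FB than the mean of the other 4 classes (-2.81 ± 0.48, adjusted p = 0.000366) and higher in the other PDGFRαlo FB (1.04 ± 0.32, adjusted p = 0.0323), the latter call being lost under 7 of 14 alternatives, among them DESeq2 (1.03) and leaving out small intestine library 1 (0.89), small intestine library 2 (0.99) or colon library 1 (1.24). Over the 20 profiles the Pearson r of *Nid1* and *Nid2* was -0.271.

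*Hmcn1* (ENSMUSG00000066842, chr1:150562524-150993435, minus strand) encodes hemicentin 1, an extracellular protein of the immunoglobulin superfamily. It was at 190 and 197 CPM in small intestinal and at 56.6 and 82.6 CPM in colonic SMC, and SMC were above the mean of the other 4 classes (2.33 ± 0.62, adjusted p = 0.0159). This call was lost without colon library 1 (2.09) or colon library 2 (2.00). In the FB its level depended on the intestine, as described below.

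Promoter sequence was looked up for *Hmcn1* and *Lama5*, the genes with the largest difference between intestines in either direction, chosen after their values were seen. Of the 10 members 6 matched a promoter entry of RefSeq (GRCm38.p6). The 250 bases before the start of *Hmcn1* (chr1:150993436-150993685, minus strand) and of *Lama5* (chr2:180225860-180226109, minus strand) are given 5′ to 3′, with capitals marking the CCAAT box, named by its letters, and the GC box, searched as GGGCGG, on either strand.
Hmcn1: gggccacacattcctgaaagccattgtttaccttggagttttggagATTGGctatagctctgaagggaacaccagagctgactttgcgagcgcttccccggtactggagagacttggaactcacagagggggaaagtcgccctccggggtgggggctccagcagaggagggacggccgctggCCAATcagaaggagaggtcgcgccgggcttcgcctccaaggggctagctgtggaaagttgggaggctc
Lama5: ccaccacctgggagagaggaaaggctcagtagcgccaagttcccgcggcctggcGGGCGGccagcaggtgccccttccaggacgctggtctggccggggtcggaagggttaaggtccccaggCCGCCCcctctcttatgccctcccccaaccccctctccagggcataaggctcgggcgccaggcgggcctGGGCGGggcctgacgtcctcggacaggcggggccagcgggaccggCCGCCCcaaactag
The *Hmcn1* window held 11 CpG and had 60% GC, with 2 CCAAT motifs and 0 GC boxes, and the *Lama5* window held 19 CpG and had 72.4% GC, with 4 GC boxes and 0 CCAAT motifs. Over 32851 RefSeq promoters, the median was 6 CpG and 52.4% GC, 33.8% held CCAAT and 32.7% held GGGCGG. The letters TATAAA (12.4% of promoters) and AGATAA (the core of GATA factor sites, 9.99%) were in 0 of the 6 member promoters, on either strand. These matches describe letters in the window only.

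Counted over the family, 5 of 10 members were higher and 2 lower in PDGFRαhi FB than in the mean of the other 4 classes, where 26.6% of all genes tested were called. In CD81+ FB 4 were higher and 3 lower (31.0% of all genes called), in the other PDGFRαlo FB 3 were higher and 1 lower (18.9%), in SMC 2 were higher and 4 lower (22.8%) and in pericytes 3 were higher and 3 lower (21.8%). With library totals only, *Lama2*, *Lamc1* and *Lamb2* were no longer called higher in CD81+ FB. The balance in that class thus depends on the scaling. The median difference of the 10 members was 0.49 in PDGFRαhi FB and lay between -0.21 and 0.17 in the other classes, beside medians of all genes between -0.09 and 0.04.

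**Figure D2:**
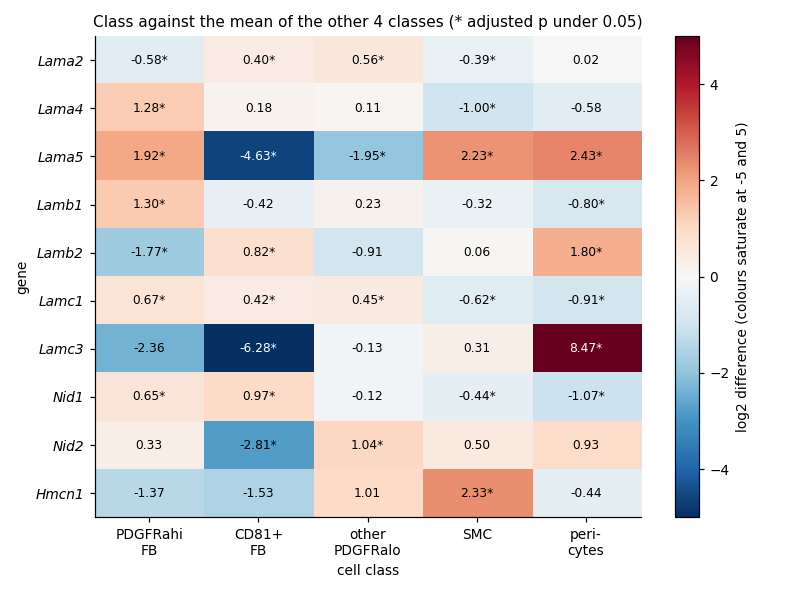
Log2 difference of each class (x axis) from the mean of the other 4 classes for each gene (y axis), with an asterisk where the adjusted p was under 0.05 and colours saturating at -5 and 5. *Lama4*, *Lamb1* and *Lamc1* share a positive, starred difference in PDGFRαhi FB, and *Lamc3* has 8.47 in pericytes; values for *Lamc3* in classes with 0 UMIs depend on the prior count.

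The intestines were compared within each gated class. The other PDGFRαlo FB pool subsets that the paper names by intestine. These are Igfbp5+ and Fgfr2+ FB in small intestine and CD90+ and Fgfr2+ FB in colon. The part of subset make-up in the differences of this class was not tested. *Hmcn1* gave the largest difference of the 10 genes and was lower in all 3 colonic FB classes. In the other PDGFRαlo FB it was at 333 and 217 CPM in the small intestine and at 5.36 and 5.01 CPM in the colon. In PDGFRαhi FB it was at 40.5 and 47.1 CPM in the small intestine and at 7.74 and 5.72 CPM in the colon, and in CD81+ FB at 48.7 and 31.5 CPM and at 3.72 and 2.94 CPM. In each of these classes both small intestinal libraries lay above both colonic ones. In small intestine library 2 PDGFRαhi FB and CD81+ FB lay below plasma (53.3 CPM, 4 UMIs) and immune cells (170.7 CPM, 11 UMIs). The other PDGFRαlo FB lay above both, and the part of free RNA in these levels was not tested. In library 1 all 3 FB classes lay above the plasma (0 UMIs) and immune cells (17.9 CPM, 4 UMIs). The log2 difference, colon minus small intestine, was -5.74 ± 0.34 in the other PDGFRαlo FB (adjusted p = 0.0317), -3.80 ± 0.41 in CD81+ FB (adjusted p = 0.0402) and -2.58 ± 0.30 in PDGFRαhi FB (adjusted p = 0.0312). Between libraries of the same number, small intestine was higher 62.1-fold and 43.3-fold in the other PDGFRαlo FB, 13.1-fold and 10.7-fold in CD81+ FB and 5.23-fold and 8.23-fold in PDGFRαhi FB (numbers 1 and 2). The calls in the first 2 of these classes passed under all 15 alternatives, whereas that in PDGFRαhi FB was lost without small intestine library 1 (-2.70) or library 2 (-2.46), where 0 of all genes were called.

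The share of cells gave the same order of intestines. With each cell thinned to 2000 UMIs, an *Hmcn1* UMI was present in 43.4% and 33.4% of small intestinal other PDGFRαlo FB (79.5% and 42.1% unthinned) and in 0.846% and 0.852% of colonic ones (4.12% and 1.83% unthinned). In SMC the thinned shares were 24.4% and 30.1% in the small intestine and 11.1% and 15.1% in colon. The 59 plasma cells of small intestine library 1 held 0 *Hmcn1* UMIs, and in the 11 of library 2 the thinned share was 9.09% (27.3% unthinned). In immune cells it was 2.86% of 35 in library 1 and 21.4% of 14 in library 2, beside 7.14% and 6.33% in PDGFRαhi FB and 7.69% and 6% in CD81+ FB. *Hmcn1* in SMC differed by -1.45 ± 0.32 between intestines, which did not pass (adjusted p = 0.120), and in pericytes it rested on 3 UMIs in either small intestine library.

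**Figure D3:**
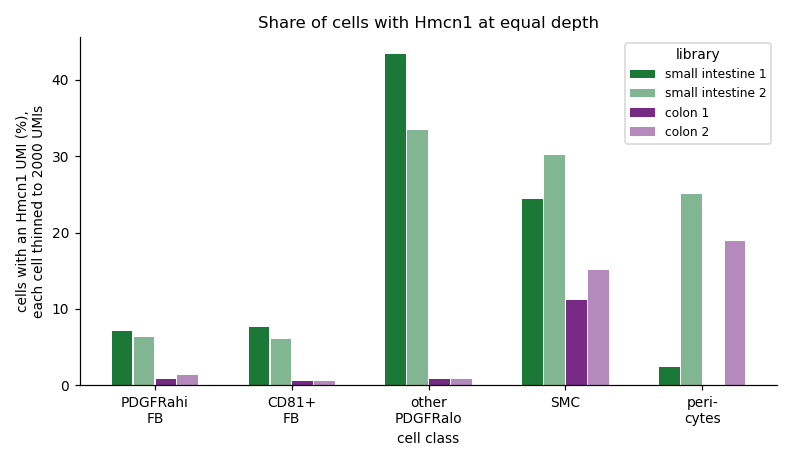
Share of cells with at least 1 *Hmcn1* UMI after each cell was thinned to 2000 UMIs (y axis, %), by class (x axis) and library, green for small intestine, purple for colon, and paler bars for library 2. In the other PDGFRαlo FB the small intestinal bars reach 43.4% and 33.4% and the colonic bars stay under 1%.

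*Nid2* was the other gene called between intestines without a block. In PDGFRαhi FB the levels given above differed by -2.79 ± 0.33 (adjusted p = 0.0312), and small intestine was 5.73-fold and 10.2-fold higher between libraries of the same number. As for *Hmcn1*, the call was lost without small intestine library 1 (-2.90) or library 2 (-2.68). In the other PDGFRαlo FB the difference was -1.51 ± 0.25 (adjusted p = 0.106) and in CD81+ FB, on 3 to 35 UMIs per library, 0.21 ± 0.66 (adjusted p = 0.975).

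*Lama5* pointed the other way in PDGFRαhi FB. With 4 and 17 UMIs in the small intestine and 266 and 733 UMIs in colon, its difference was 3.43 ± 0.52, just short of a call (adjusted p = 0.0566), and between libraries of the same number colon was 14.7-fold and 8.63-fold higher. It passed under 7 of 15 alternatives, among them DESeq2 (3.45) and leaving out colon library 1 (3.75) or 2 (3.06), and did not without small intestine library 1 (2.99) or 2 (4.33). The adjusted p from edgeR or DESeq2 ranged from 1.77e-33 to 0.171 over these alternatives. Thinned to 2000 UMIs per cell, *Lama5* was seen in 5.67% and 8.83% of colonic and in 0% and 0.463% of small intestinal PDGFRαhi FB. In SMC the difference was 0.68 ± 0.45 (adjusted p = 0.707).

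The remaining genes did not pass between intestines in any class in the fit without a block. In PDGFRαhi FB the differences of *Lama4* (-1.28 ± 0.31, adjusted p = 0.147) and *Lama2* (-0.95 ± 0.26, adjusted p = 0.201) were the largest of these, and both small intestinal values lay above both colonic ones for either gene. *Lama4* passed there with DESeq2 (-1.29, adjusted p = 0.0152) and without the filter on low counts (-1.25, adjusted p = 0.0416). *Lama2* had the same sign in the other classes, at -0.61 ± 0.26 in CD81+ FB, -0.61 ± 0.23 in the other PDGFRαlo FB and -1.06 ± 0.34 in SMC. *Lamb1* and *Nid1*, the genes with most UMIs in these classes, lay between -0.61 and -0.02 in the FB classes and SMC. Over the family, 2 of 9 members tested were called in PDGFRαhi FB, where 1.52% of all genes were called, 1 of 8 in CD81+ FB (0.586%), 1 of 10 in the other PDGFRαlo FB (0.585%), 0 of 9 in SMC (0.891%) and 0 of 8 in pericytes (0%). In SMC DESeq2 called 0 of the 9 as well, and in pericytes 0 of the 8. Over all 3584 genes tested in pericytes, edgeR's quasi-likelihood test called 0, with 116 at an unadjusted p under 0.05, and DESeq2 called 4. *Lamc3* fell under the filter on low counts in PDGFRαhi FB, CD81+ FB and SMC, *Lama5* in CD81+ FB and pericytes, and *Nid2* in pericytes.

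With the library number, which is also the split by Cell Ranger version, as a block in edgeR, more members passed, as did more of all genes. In PDGFRαhi FB 6 of 9 passed (23.7% of all genes), namely *Hmcn1*, *Nid2*, *Lama5* (3.46), *Lama4* (-1.27), *Lama2* (-0.95) and *Lamc1* (-0.60, adjusted p = 0.00547). In CD81+ FB 3 of 8 passed (8.05%), *Hmcn1*, *Lama4* (0.68) and *Lamb2* (0.84). In the other PDGFRαlo FB 6 of 10 passed (20.2%), *Hmcn1*, *Nid2* (-1.54), *Lama5* (2.09), *Lama2* (-0.60), *Nid1* (-0.59) and *Lamb1* (-0.56). In SMC 3 of 9 passed (11.4%), *Hmcn1* (-1.47), *Nid2* (-1.34) and *Lama2* (-1.06), and in pericytes 0 of 8 (0.391%). The block moved the p-values far more than the differences.

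**Figure D4:**
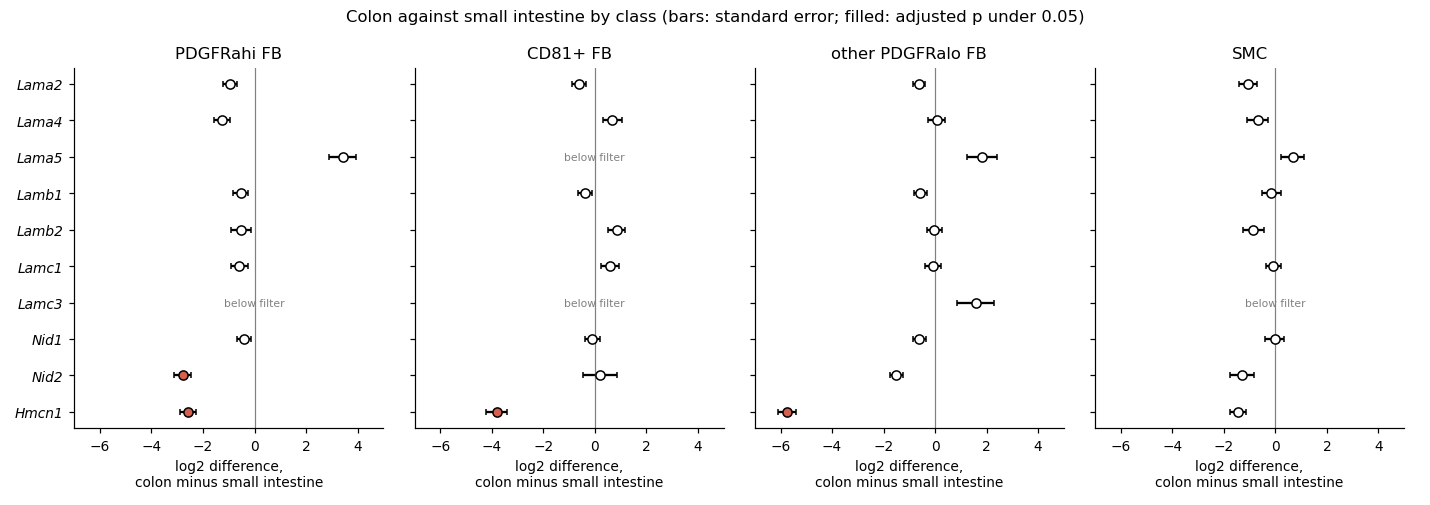
Log2 difference between intestines (x axis, colon minus small intestine) with its standard error for each gene (y axis) in 4 classes, filled where the adjusted p was under 0.05. *Hmcn1* is filled in the 3 FB classes at -2.58, -3.80 and -5.74, *Nid2* in PDGFRαhi FB at -2.79, and *Lama5* in PDGFRαhi FB stands at 3.43 unfilled.

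The difference between intestines was then compared between FB classes in 1 model with library as a block. *Hmcn1* differed less between intestines in PDGFRαhi FB than in the other PDGFRαlo FB (difference of the log2 differences 3.07 ± 0.51, adjusted p = 0.00306). In small intestine library 2 the PDGFRαhi FB level that enters here (47.1 CPM) lay below plasma (53.3 CPM) and immune cells (170.7 CPM). The part of free RNA in this difference was not tested. *Nid2* and *Lama4* were lower in colonic PDGFRαhi FB by more than in the other PDGFRαlo FB (-1.28 ± 0.25, adjusted p = 0.00122, and -1.36 ± 0.23, adjusted p = 0.000222). With *Hmcn1* these were 3 of 10 members, where 6.59% of all genes were called. Against CD81+ FB, colonic PDGFRαhi FB were lower by more in *Lama4* (-1.98 ± 0.23, adjusted p = 1.83e-06), *Nid2* (-3.24 ± 0.47, adjusted p = 2.79e-05) and *Lamc1* (-1.20 ± 0.20, adjusted p = 0.000194), again 3 of 10 members (10.8% of all genes). *Lama4* and *Lamc1* had opposite signs in the 2 classes: *Lamc1* was at 333 and 216 CPM in colonic against 185 and 136 CPM in small intestinal CD81+ FB, and higher in small intestine in PDGFRαhi FB. Between CD81+ FB and the other PDGFRαlo FB the difference was called for *Nid2* (1.96 ± 0.44, adjusted p = 0.00816) and *Lamc1* (0.72 ± 0.20, adjusted p = 0.0377), 2 of 10 members (4.43% of all genes). *Nid2* was no longer called without colon library 2 against PDGFRαhi FB (-1.92) or against the other PDGFRαlo FB (0.77), nor in the latter without small intestine library 2 (2.86), and its call against the other PDGFRαlo FB was lost with DESeq2 and after thinning for PDGFRαhi FB (-1.32 and -1.02) and for CD81+ FB (1.94 and 1.87). The call of *Lamc1* between CD81+ FB and the other PDGFRαlo FB was lost without any 1 library (0.67 to 0.78).

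The study names an Fgfr2+ FB class, so the other PDGFRαlo FB were also split by whether a cell had an *Fgfr2* UMI. Cells with one numbered 382 and 2927 in the small intestine and 469 and 1252 in colon and were the deeper ones, at medians of 8703.5, 2897, 9790 and 4526.5 UMIs against 6180.5, 2709, 8300 and 3961.5 in cells without. *Hmcn1* was at 351 and 251 CPM in small intestinal and at 6.47 and 7.0 CPM in colonic *Fgfr2*-positive cells, against 280 and 193 CPM and 2.87 and 3.70 CPM in the negative cells. It was higher with *Fgfr2* in 4 of 4 libraries (0.36 ± 0.07, adjusted p = 0.000552), as was *Lama4* (0.20 ± 0.05, adjusted p = 0.0198), and *Lamb2* was lower in 4 of 4 (-0.34 ± 0.09, adjusted p = 0.0113). These were 3 of 9 members tested (3.66% of all genes), DESeq2 called 0 of the 9, and without small intestine library 2 none was called (0.39 for *Hmcn1*, 0.18 for *Lama4*, -0.34 for *Lamb2*). *Lama4* was also lost without small intestine library 1 (0.18) or colon library 1 (0.19), and *Lamb2* without colon library 2 (-0.25).

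The numbering of the libraries moved with several of these genes. Within each intestine and class, giving 10 pairs, *Lama4*, *Lamb1* and *Nid1* were higher in library 2 in 10 of 10 pairs (median ratios 1.5, 1.2 and 1.24) and *Lamc1* was lower in 10 of 10 (median ratio 0.675). *Lama2* was higher in 9 of 10, and *Hmcn1* in 5 of 10. Libraries of either number were present in both intestines, so intestines were also compared within a number. *Lamc1* in PDGFRαhi FB was 1.64-fold and 1.68-fold higher in small intestine in numbers 1 and 2. Cell Ranger version, experiment, kit (3′ or 5′), barcode set and depth per cell cannot be told apart here, and kit and barcode set are not stated per library.

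**Figure D5:**
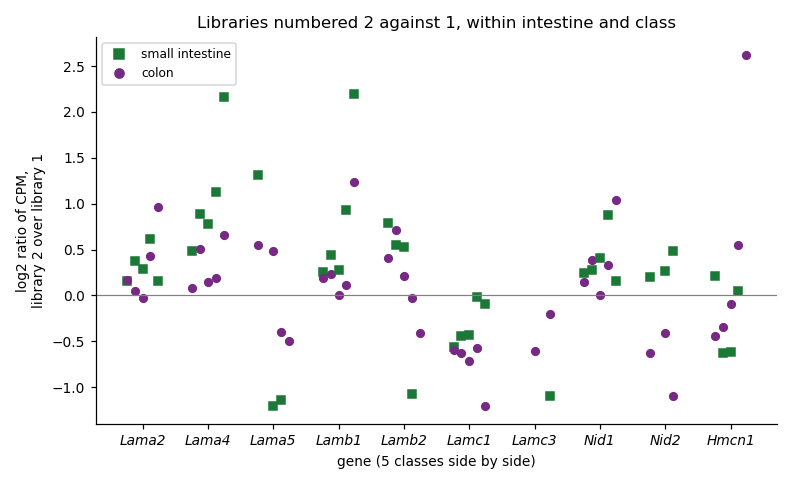
Log2 ratio of CPM in library 2 over library 1 of the same intestine (y axis) for each gene (x axis), the 5 classes side by side within a gene, green squares for small intestine and purple circles for colon, shown where both libraries had more than 3 UMIs. All *Lamc1* points lie below 0 and all *Lama4* points above 0.

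Other basement membrane genes were read from 4 lists. Among the other laminin chains, *Lama1*, the α1 chain of embryonic laminin, was higher in the other PDGFRαlo FB (2.98, adjusted p = 0.000189). It was not called between intestines in PDGFRαhi FB or the other PDGFRαlo FB, the classes in which it was tested. Of the 6 type IV collagens, which form the other network of a basement membrane, 2 were higher and 1 lower in PDGFRαhi FB (*Col4a6*, 4.50, adjusted p = 3.40e-05). There 26.6% of all genes were called. In pericytes 3 were higher, beside 21.8% of all genes (*Col4a3*, 2.59, adjusted p = 0.0440). Between intestines, 1 was called, *Col4a6* in the other PDGFRαlo FB (6.74 higher in colon, adjusted p = 0.0494), where 0.585% of all genes were called.

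Of 20 further basement membrane components, 6 were higher and 6 lower of 19 tested in PDGFRαhi FB, where 26.6% of all genes were called (*Ntn4*, a netrin that binds laminin, -5.16, adjusted p = 7.64e-06). In CD81+ FB 6 were higher and 6 lower, beside 31.0% of all genes (*Tinagl1*, -5.11, adjusted p = 3.20e-05). *Tinagl1*, a secreted matrix protein of vessel walls, was also the gene of the list with the largest difference in SMC (4.99, adjusted p = 1.43e-07) and pericytes (5.71, adjusted p = 1.92e-07). Between intestines the list had 2 genes lower of 17 in colonic PDGFRαhi FB (*Smoc2*, a SPARC-related calcium-binding protein, -6.08, adjusted p = 0.0202), 1 of 16 in CD81+ FB (*Egflam*, a ligand of dystroglycan, -2.97, adjusted p = 0.0318), 1 of 19 in SMC (*Npnt*, a ligand of integrin α8β1, -5.18, adjusted p = 0.0188), 0 of 20 in the other PDGFRαlo FB and 0 of 10 in pericytes. None was higher in colon. Of all genes, 1.52%, 0.586%, 0.891%, 0.585% and 0% were called in these classes, in that order. The median difference of this list lay between -0.84 and -0.39 in the 5 classes, beside medians of all genes between -0.01 and 0.02.

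Of 9 laminin receptors, 8 were tested between classes. In SMC 5 were higher and 0 lower, where 22.8% of all genes were called (*Bcam*, 2.18, adjusted p = 0.00251). In pericytes 3 were higher and 0 lower, beside 21.8% of all genes (*Itga7*, the α subunit of a laminin-binding integrin of muscle, 4.57, adjusted p = 5.68e-07). In CD81+ FB 0 were higher and 4 lower, beside 31.0% of all genes (*Itga1*, -3.13, adjusted p = 8.27e-07). In PDGFRαhi FB 2 were higher and 3 lower, beside 26.6% of all genes (*Itga7*, -2.39, adjusted p = 0.00105). Between intestines 0 of the 5 to 8 receptors tested were called in any class by edgeR. *Itga6*, the α6 subunit, had a difference between intestines that itself differed between PDGFRαhi FB and the other PDGFRαlo FB (-2.07, adjusted p = 0.0176).

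Finally, the genes most like each member over the 20 profiles were read from 11574 genes with at least 200 UMIs. *Lamb1* was followed by *Cybrd1* (r = 0.959) and *Eva1b* (r = 0.952), *Lama5* by *Sbspon* (0.946) and *Cysltr1* (0.920), *Lama4* by *Tnpo1* (0.906) and *Il6ra* (0.902), and *Lamc1* by *Ppp1cc* (0.905) and *Rbms1* (0.884). For *Nid2* they were *Casc3* (0.869) and *Igfbp5* (0.854, a gate marker), for *Nid1* *Strbp* (0.850) and *Homer2* (0.844), for *Lama2* *Rnf213* (0.883) and *Nin* (0.848), for *Lamb2* *Cystm1* (0.880) and *Prrx1* (0.869) and for *Hmcn1* *Tmem131* (0.850) and *Pros1* (0.821). *Lamc3* was under the minimum of 200 UMIs. Profiles share libraries and classes, so these values order genes and carry no test.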

How the data were processed

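Single cells of the 4 libraries were measured with droplet 3′ or 5′ RNA-seq. The authors deposited raw UMI counts per gene and barcode, as whole numbers made with Cell Ranger (3.0.2 for the libraries numbered 1 and 3.1.0 for those numbered 2, per the file headers), and no value was normalized. Gene positions are from GENCODE vM21 (GRCm38). There were 0 columns of samples outside the series.

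Barcodes were kept from 500 genes and 1000 UMIs upwards if mitochondrial UMIs made up no more than 10%, doublets were removed at a scrublet score of 0.2, and cells were assigned to classes by capped marker scores with a margin of 0.2. Counts were summed per library and class. edgeR 4.0.16 (quasi-likelihood test, TMM scaling, filterByExpr, Benjamini-Hochberg adjustment over all genes tested) was run in R 4.3.3. Intestines were compared without a block, and classes and the split by *Fgfr2* with library as a block. The standard error is the log2 difference divided by the root of F. All 10 members are named, and from each further list the called gene with the largest difference. Counts over the list of other laminin chains are not reported here. Genes most like a member were ranked by Pearson r of log2(CPM + 1) over 20 profiles. The scripts were tested on simulated data.

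Alternatives were DESeq2 size factors, library totals, no filter on low counts, DESeq2 1.42.0, the replicate number as a block, a log2 fold limit of 1.5, a stricter gate margin of 0.5, at least 1000 genes, at most 5% mitochondrial UMIs, doublets kept, thinning to 2000 UMIs per cell, and leaving out each library. The members, the lists and the tests were chosen with earlier results of these data known, and the scoring rule of the gate and the doublet threshold were set after the data were seen. Floors are 3 counts per library, and cover counting error only. Labels describe independent experiments but tie no cell to a mouse, so p-values measure the spread between libraries.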

Additional observations from a re-analysis of the deposited data

Results flagged for a closer look

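The difference between intestines itself differed between FB classes for 4 members, by edgeR's quasi-likelihood test in 1 model with library as a block. Between PDGFRαhi FB and the other PDGFRαlo FB the log2 difference (colon minus small intestine) was apart by 3.07 for *Hmcn1*, -1.36 for *Lama4* and -1.28 for *Nid2*. Between PDGFRαhi FB and CD81+ FB it was apart by -1.20 for *Lamc1*, -1.98 for *Lama4* and -3.24 for *Nid2*, and between CD81+ FB and the other PDGFRαlo FB by 0.72 for *Lamc1* and 1.96 for *Nid2*. The *Nid2* values rest on 3 to 35 UMIs per library in CD81+ FB. For *Hmcn1*, the PDGFRαhi FB level of small intestine library 2 lay below that of plasma and immune cells of the same library. The part of free RNA was not tested.

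Outside the classes compared, *Lamc3* was found in colonic interstitial cells of Cajal, the pacemaker cells of gut muscle. It stood at 35.9 CPM in library 1 (5 UMIs in 12 cells) and at 38.3 CPM in library 2 (8 UMIs in 49 cells), below the 132 and 115 CPM of colonic pericytes and above the 0 UMIs of CD81+ FB. Small intestine gave 2 such cells, with 0 *Lamc3* UMIs.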

How the results depend on the processing

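The 45 calls of members were refitted 634 times, of which 510 kept direction and call, 124 kept the direction and lost the call, and 0 reversed. Counts of members called are given where they moved by over 1.5 times, and the cause was not tested. All genes called between intestines also moved, as given below for DESeq2 and without the filter. A moved count of members is therefore not a result about the members. Shares of all genes under the other settings of this paragraph are not given. With library totals only, 3 members were called in SMC against the other classes. Without the filter on low counts, 4 were called between intestines in PDGFRαhi FB, 1 in SMC and 5 for PDGFRαhi FB against CD81+ FB. DESeq2 called 4 between intestines in PDGFRαhi FB, 2 in the other PDGFRαlo FB, 1 for CD81+ FB against the other PDGFRαlo FB and 0 for the split by *Fgfr2*. With a log2 fold limit of 1.5, 2 were called in PDGFRαhi FB, 3 in CD81+ FB, 1 in the other PDGFRαlo FB, 2 in SMC and 3 in pericytes against the other classes, 1 for PDGFRαhi FB and 1 for CD81+ FB against the other PDGFRαlo FB, and 0 for the split. The split gave 1 with the stricter gate and 1 after thinning. CD81+ FB against the other classes gave 4 with at least 1000 genes. CD81+ FB against the other PDGFRαlo FB gave 1 with at least 1000 genes, at most 5% mitochondrial UMIs, doublets kept or thinning. Thinning also gave 2 between intestines in the other PDGFRαlo FB and 3 in SMC against the other classes.

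Leaving out 1 library gave 0 to 3 members called between intestines in PDGFRαhi FB and 0 to 1 in SMC. Against the other classes it gave 4 to 8 in CD81+ FB, 1 to 3 in the other PDGFRαlo FB, 1 to 6 in SMC and 3 to 6 in pericytes. It gave 0 to 1 for CD81+ FB against the other PDGFRαlo FB and 0 to 3 for the split. A lone library was then assumed to vary like the other group.

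With the replicate block, 6 members were called between intestines in PDGFRαhi FB, 3 in CD81+ FB, 6 in the other PDGFRαlo FB, 3 in SMC and 0 in pericytes, and all genes called numbered 2720, 906, 2525, 1089 and 14 against 175, 66, 73, 85 and 0 without it. Differences between libraries 2 and 1 correlated between the intestines (r = 0.691 to 0.811 over genes), and libraries of a number share a Cell Ranger version. No label ties a number to a shared experiment or day, and with 2 pairs the fit without the block was kept as the reported one. The paper does state that sorted MSC subsets of both intestines came from the same mice, without naming the libraries or their numbers.

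All genes called between intestines (PDGFRαhi FB, CD81+ FB, other PDGFRαlo FB and SMC) numbered 759, 610, 277 and 469 without the filter and 597, 283, 492 and 252 with DESeq2. Library totals moved the median of all genes to -0.28 in CD81+ FB against the other classes, where the share of calls that were higher went from 60.8% to 25.9%. *Lamc3* and *Lama5* rest on few UMIs in several classes, and small intestine library 2 gave 28 pericytes.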

Other observations

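Endothelial cells are outside the MSC classes and escaped the CD31 depletion mostly in the libraries numbered 1. In 348 small intestinal and 237 colonic endothelial cells of library 1, *Lama4*, a chain of vessel laminins, stood at 175 and 202 CPM, *Lamb1* at 145 and 211 CPM and *Lamb2* at 94.4 and 74.6 CPM. *Lama5* stood at 29.2 and 28.4 CPM and *Hmcn1* at 40.4 and 42.3 CPM. The 2 intestines thus held similar *Hmcn1* levels in endothelial cells of library 1, with 1 library each and no test. In 24 endothelial cells of colon library 2, however, *Hmcn1* stood at 6.3 CPM (1 UMI).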
